A study of Mus musculus with 4 samples.

Results

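The genes described here encode the machinery through which a cell senses nutrients at the surface of its lysosomes. They are the mTOR kinase complexes, the Rag GTPases and Ragulator, the amino acid sensors and the GATOR1 complex. Folliculin with its partners, the MiT/TFE transcription factors, and AMPK with its upstream kinase LKB1 and the autophagy kinase ULK1 complete the set. The 39 genes were chosen by symbol, all 39 were found among the 53379 gene identifiers of the deposited count table, and all 39 passed the filter on low counts that left 18422 genes for testing. Tumours came from 2 high-fat-diet mice, which were compared with 2 control-diet mice. All mice were C57BL/6J and carried tumours of MC38, a mouse colon carcinoma line that grows in this strain. Tumour-associated macrophages were sorted 21 days after implantation as cells positive for CD45, CD11b and F4/80, and their polyA RNA was sequenced. The labels describe neither diet further, and they give no age or sex.

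mTORC1 is a kinase complex that drives protein synthesis and other growth processes when amino acids and growth factors are at hand. Amino acids act through the Rag GTPases, which Ragulator anchors to the lysosome and which bring mTORC1 there, while growth factors act through the TSC complex and the small GTPase Rheb. AMPK, a kinase that responds to low cellular energy, opposes mTORC1 and turns on autophagy through ULK1. The transcription factors TFEB and TFE3 are held in the cytoplasm by active mTORC1 and otherwise switch on genes of lysosomes and autophagy. In macrophages this network handles the nutrients released by digestion of engulfed material.

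Of the 39 genes, edgeR's quasi-likelihood test called 1 higher and 1 lower with the high-fat diet at an adjusted p below 0.05. These were Sesn1, which encodes a sestrin, and Ulk1. In 23 members (59%) the libraries of one diet all lay above those of the other, against 63.8% of all tested genes. At an unadjusted edgeR p below 0.05 stood 8 members, 2 higher and 6 lower, where 31.3% of all tested genes did. The 2 calls are 5.13% of the members, where 10.5% of all tested genes were called in either direction, 2.61% higher and 7.91% lower. The median log2 fold change of the members was -0.10, and that of all tested genes was 0.00. In 20 members (51.3%) the log2 fold change lay within 0.25 of 0, against 46.5% of the 10312 genes whose average log2 CPM reached 3 or more. CPM is a gene's count scaled to a common library size with edgeR. Of the members, 38 were at or above that level. Among the 10312 genes at that level 7.86% were called. The members' 5.13% is only 2 genes of 39, too few to set it nearer to either share.

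The promoters of Sesn1 and Ulk1 are shown because these 2 members passed the edgeR threshold. Each stretch holds the 250 bases before a transcription start in the RefSeq table for build GRCm38.p6, read 5′ to 3′ on the gene's strand. Capitals mark GC boxes, the letters GGGCGG on either strand.
Sesn1, first start, chr10:41810324-41810573, plus strand: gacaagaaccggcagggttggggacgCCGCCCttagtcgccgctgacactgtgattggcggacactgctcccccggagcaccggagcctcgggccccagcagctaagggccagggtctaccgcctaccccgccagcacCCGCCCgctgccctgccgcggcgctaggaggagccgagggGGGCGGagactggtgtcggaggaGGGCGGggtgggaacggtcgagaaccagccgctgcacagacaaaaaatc
Sesn1, second start, chr10:41887189-41887438, plus strand: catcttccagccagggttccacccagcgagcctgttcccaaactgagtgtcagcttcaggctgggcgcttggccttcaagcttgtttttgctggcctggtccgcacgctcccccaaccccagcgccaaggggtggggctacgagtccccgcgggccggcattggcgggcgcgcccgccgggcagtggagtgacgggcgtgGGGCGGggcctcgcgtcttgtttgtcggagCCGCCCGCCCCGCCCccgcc
Ulk1, chr5:110810082-110810331, minus strand: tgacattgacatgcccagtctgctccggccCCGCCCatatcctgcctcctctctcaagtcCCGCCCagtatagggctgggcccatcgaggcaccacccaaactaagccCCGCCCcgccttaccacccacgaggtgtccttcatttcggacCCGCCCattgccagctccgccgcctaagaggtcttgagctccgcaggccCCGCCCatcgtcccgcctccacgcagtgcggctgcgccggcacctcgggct
Both Sesn1 stretches held 4 GC boxes, counting overlapping ones, and the Ulk1 stretch held 5. A GC box was found in 25 of the 42 promoters of members (59.5%), against 32.7% of all 32851 promoters in the table. The table held promoters for 36 of the 39 members. Shares over all promoters, here and for the motifs below, were not limited to tested genes.

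MiT/TFE factors bind a palindrome called the CLEAR element at lysosomal genes. That palindrome was in 0 of the 42 members' stretches and in 0.24% of all promoters, too rare for this 0 to describe the members. Its inner part, the E-box preceded by T (TCACGTG, either strand), was in 5 of the 42 (11.9%) against 3.13% of all. These were promoters of Fnip1, Lamtor1, Lamtor4, Rheb and Rragc, shown here around the motif in capitals because 3 of them belong to the Rag and Ragulator group described below.
Fnip1, chr11:54438087-54438127, plus strand: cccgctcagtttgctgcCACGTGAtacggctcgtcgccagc
Lamtor1, chr7:101905751-101905791, plus strand: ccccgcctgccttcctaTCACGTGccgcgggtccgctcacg
Lamtor4, chr5:138255345-138255385, plus strand: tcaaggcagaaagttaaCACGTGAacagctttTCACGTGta
Rheb, chr5:24842435-24842475, minus strand: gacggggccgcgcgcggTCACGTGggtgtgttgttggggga
Rragc, chr4:123917304-123917344, plus strand: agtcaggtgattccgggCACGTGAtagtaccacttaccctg
A match of letters describes the sequence only. The FOXO core GTAAACA was in 0 of the members' stretches (3.17% of all promoters), and the cyclic AMP response element TGACGTCA was in those of Flcn and Mitf (1.55% of all).

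Total counts were 36898146 and 37147582 for the high-fat-diet mice, against 34148682 and 37159552 for the control-diet mice. The 13 macrophage markers, Csf1r, Cd68 and Adgre1 among them, were present in every library, with a summed level of 16704 and 17429 CPM with the high-fat diet, against 14247 and 17255 CPM with the control diet, and 0 of them were called (3 at an unadjusted p below 0.05; edgeR). Lists of other cell types differed by diet. Of 9 tested neutrophil markers 6 were lower (summed list 193 and 171 CPM with the high-fat diet, against 394 and 193 CPM with the control diet), with Ly6g at 0 in both high-fat-diet libraries. Of 10 fibroblast and pericyte markers 6 were higher (2064 and 2058 CPM with the high-fat diet, against 1040 and 779 CPM with the control diet), and of 6 tested carcinoma epithelial markers 5 were lower (39.6 and 46.1 CPM with the high-fat diet, against 156 and 115 CPM with the control diet). The control-diet libraries differed from each other in the T, NK and B cell list (25.8 and 24.3 CPM with the high-fat diet, against 76 and 22.6 CPM with the control diet) and the dendritic cell list (127 and 149 CPM with the high-fat diet, against 211 and 114 CPM with the control diet). Of the 13 and 8 genes of these lists, 12 and 8 were tested, 1 and 0 were higher, and 2 and 2 were lower. Of 4 tested endothelial markers 0 were called (42.1 and 58.2 CPM with the high-fat diet, against 91.6 and 51.6 CPM with the control diet). Mitochondrially encoded transcripts summed to 23907 and 13986 CPM with the high-fat diet and 6351 and 9284 CPM with the control diet, with 2 of 6 tested genes higher and mt-Atp6, mt-Co2 and mt-Co3 at 0 in every library. Of 11 immediate early genes 1 was lower (10875 and 11556 CPM with the high-fat diet, against 13693 and 9737 CPM with the control diet). The part of these differences in the results below was not tested. In sorted bulk samples, fewer cells of a type and less RNA per cell cannot be told apart.

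**Figure D1:**
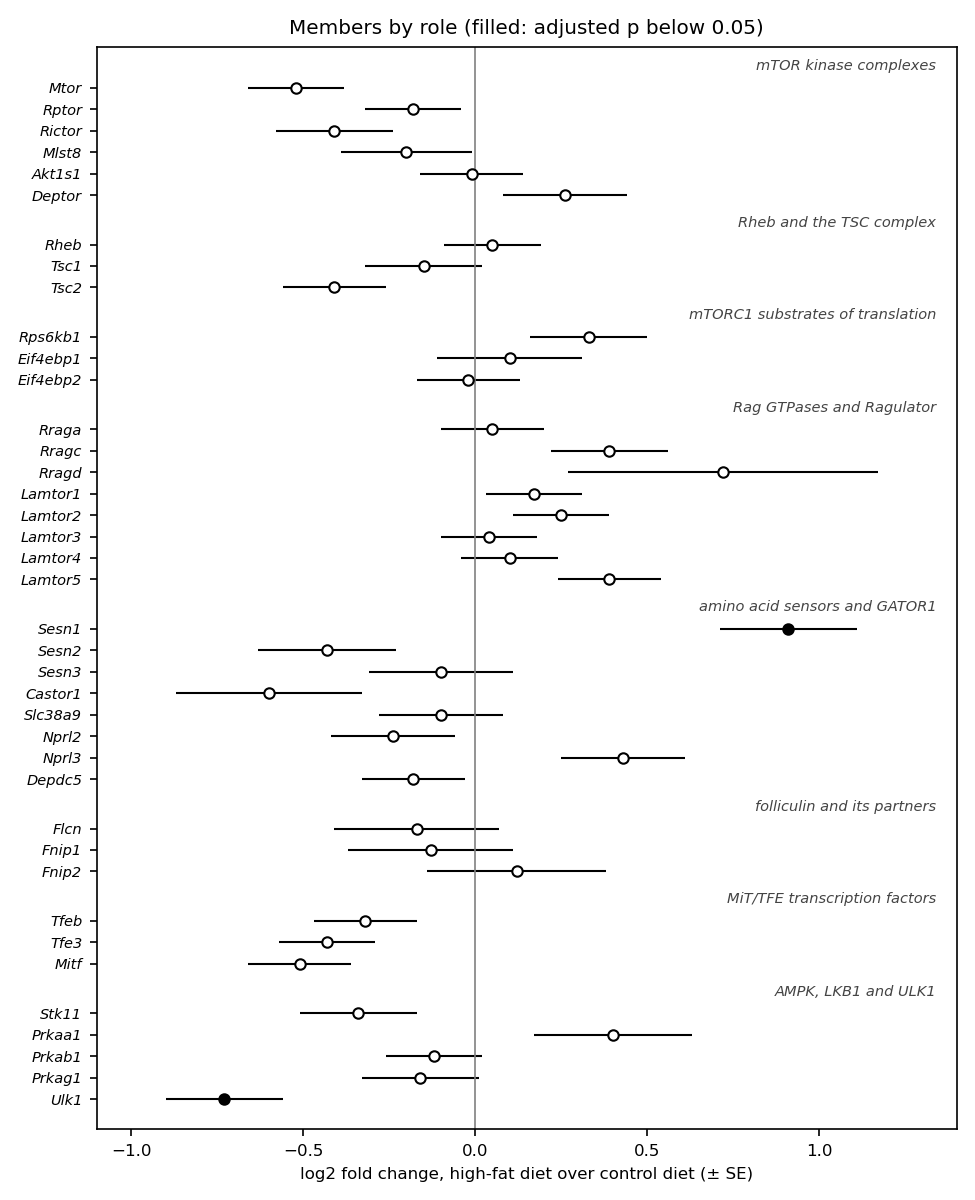
Log2 fold change (high-fat diet over control diet, horizontal axis) with its standard error for each of the 39 genes, grouped by role. Sesn1 at 0.91 and Ulk1 at -0.73 are filled, and all 8 Rag and Ragulator genes lie on the positive side, where Lamtor3 did not stay after the correction for GC content and length.

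Sesn1, one of 3 sestrin genes, rose with the high-fat diet. Sestrins hold back mTORC1 through the GATOR complexes, and the sestrin SESN2 is a leucine sensor in human cells. Sesn1 (chromosome 10, 41809935 to 41908424, GRCm38) had 44.8 and 34.8 CPM in the high-fat-diet mice, against 18.6 and 23.8 CPM in the control-diet mice. Both high-fat-diet libraries lay above both control-diet libraries, and the log2 difference between the diets exceeded that between the mice of either diet. The log2 fold change was 0.91 (SE 0.20, a 1.88-fold difference, edgeR adjusted p = 0.0417). Without high-fat-diet mouse 1, high-fat-diet mouse 2 or control-diet mouse 1 the call ended, with log2 fold changes of 0.74, 1.10 and 0.75 and edgeR adjusted p of 0.217, 0.0674 and 0.0555. It also ended with a minimum of 50 counts (edgeR adjusted p = 0.0574).

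Sesn2 leaned the other way without a call. It had 45.3 and 43.9 CPM with the high-fat diet, against 71.1 and 49.3 CPM with the control diet (log2 fold change -0.43, SE 0.20, edgeR adjusted p = 0.196). The distance to the control-diet libraries came mainly from control-diet mouse 1, and the value was -0.14 without it and -0.26 after a correction for GC content and length. Without control-diet mouse 2 it was -0.67 and called (edgeR adjusted p = 0.0205). Sesn3 overlapped between the diets, with 26 and 19.3 CPM with the high-fat diet, against 21.3 and 27.3 CPM with the control diet. Per kb of exon, where levels of different genes can be set side by side, Sesn1 made up 43.3 and 38.6% of the summed sestrin level in the high-fat-diet mice and 17.6 and 27.2% in the control-diet mice. Sesn2 made up 50.1 and 55.8% in the high-fat-diet mice and 77.2 and 64.7% in the control-diet mice. The summed level overlapped between the diets, at 26 and 22.6 CPM per kb with the high-fat diet and 26.5 and 22 CPM per kb with the control diet. Sesn2 was the most abundant sestrin per kb in all 4 libraries, with a Sesn1 to Sesn2 ratio of 0.863 and 0.691 with the high-fat diet, against 0.228 and 0.42 with the control diet. These shares were computed after the values of the genes were seen and are given as a description.

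Of the other amino acid sensors, Castor1, whose product binds arginine in human cells, had 9.43 and 12.7 CPM with the high-fat diet and 20.3 and 13.1 CPM with the control diet (log2 fold change -0.60, SE 0.27, edgeR adjusted p = 0.195). Its high-fat-diet libraries lay below the control-diet libraries, with a narrow gap to control-diet mouse 2. Without that mouse the log2 fold change was -0.88 and was called (edgeR adjusted p = 0.0275), and over the other libraries left out it reached -0.24, without control-diet mouse 1. Slc38a9, a lysosomal arginine sensor and transporter, overlapped between the diets with 21.6 and 20.3 CPM with the high-fat diet, against 19.7 and 25.3 CPM with the control diet.

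GATOR1 is the complex of Depdc5, Nprl2 and Nprl3 that switches off RagA, and its subunits did not share a direction. Nprl3 had 15.8 and 17 CPM in the high-fat-diet mice, against 13.2 and 11.2 CPM in the control-diet mice. Its libraries did not overlap, yet it was not called (log2 fold change 0.43, SE 0.18, edgeR adjusted p = 0.167). Exons of Nprl3 share 1340 bases with Mpg on the opposite strand, which held 709 counts over the 4 libraries beside 2085 for Nprl3. The library kit kept strand, but whether counting used it is not given in the sources used here. Nprl2 had a log2 fold change of -0.24 and Depdc5 one of -0.18, both with high-fat-diet libraries below control-diet libraries and neither called (edgeR adjusted p = 0.407 and 0.437). Depdc5 turned to 0.04 after the correction for GC content and length.

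Ulk1, the kinase that starts autophagy and is switched on by AMPK and off by mTORC1, fell with the high-fat diet. Ulk1 (chromosome 5, 110784488 to 110810097) had 41.6 and 46.5 CPM in the high-fat-diet mice, against 81.3 and 64.9 CPM in the control-diet mice. The high-fat-diet libraries were close to each other and both lay below the control-diet libraries. The log2 fold change was -0.73 (SE 0.17, a 1.66-fold difference, edgeR adjusted p = 0.0467). The call ended when high-fat-diet mouse 1 was left out (-0.63, edgeR adjusted p = 0.266), and likewise high-fat-diet mouse 2 (-0.79, 0.154) or control-diet mouse 1 (-0.55, 0.0747). With the mouse number as a block the edgeR adjusted p was 0.0625, and with a minimum of 50 counts it was 0.051. Ulk2, the related kinase, had 60.6 and 55.5 CPM with the high-fat diet and 36.8 and 52.1 CPM with the control diet and was not called (log2 fold change 0.38, SE 0.20, edgeR adjusted p = 0.234). Per kb, the Ulk1 to Ulk2 ratio was 0.633 and 0.772 with the high-fat diet and 2.03 and 1.15 with the control diet, a pair chosen after its values were seen. Ulk1 was the lower of the pair in both high-fat-diet libraries and the higher in both control-diet libraries.

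**Figure D2:**
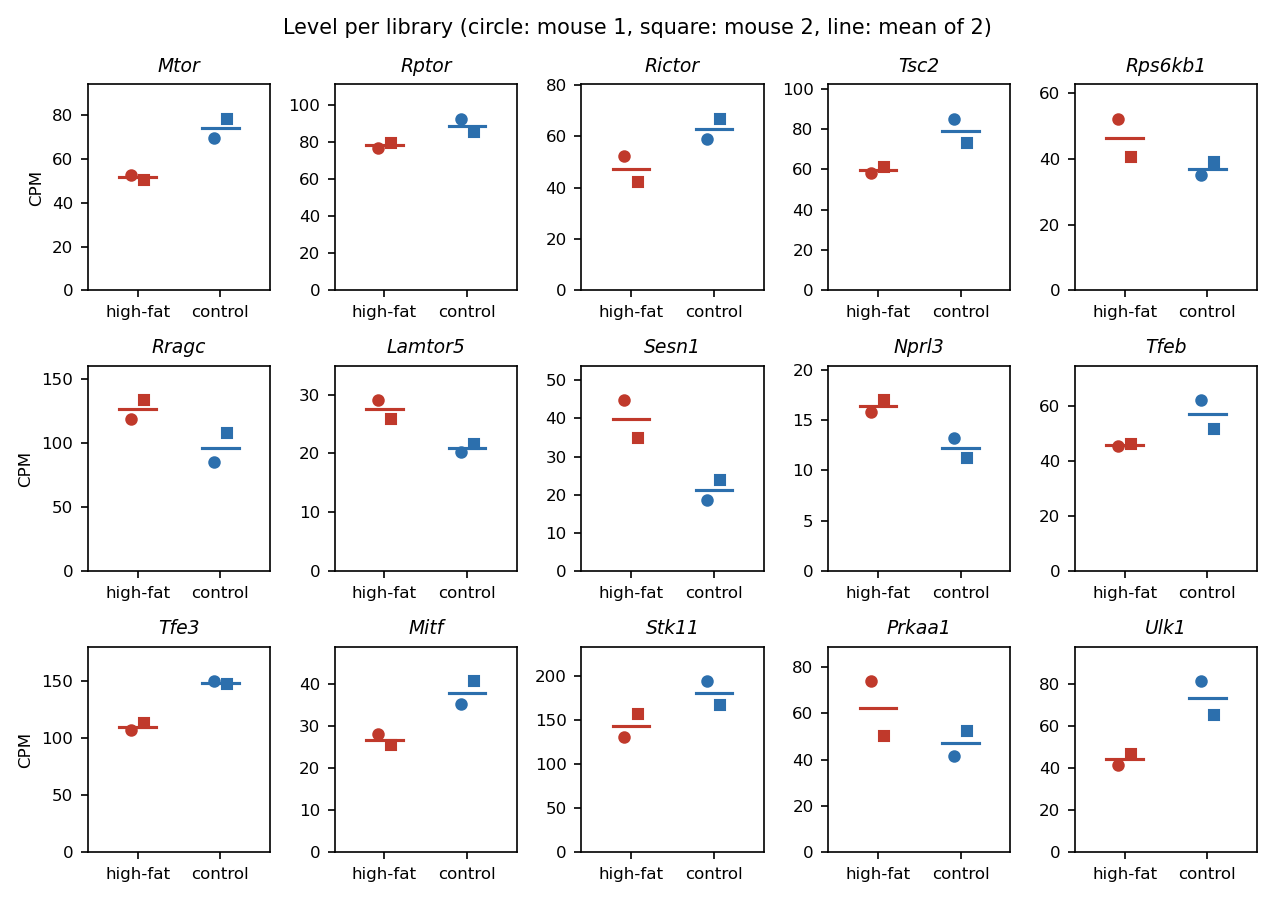
Level in CPM (vertical axis, from 0) of 15 members in each library, high-fat diet on the left and control diet on the right of each panel. Circles are mouse 1, squares mouse 2 and lines the mean of 2 mice. The diets overlap in the panel of Prkaa1 and not in the other 14, which were chosen in part by smallest p (23 of all 39 members, 59%, do not overlap, and 63.8% of all tested genes).

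Of the 3 AMPK subunits among the members 0 were called by edgeR or DESeq2, and 0 had an unadjusted edgeR p below 0.05. Stk11, which encodes the upstream kinase LKB1, had 131 and 157 CPM with the high-fat diet and 195 and 168 CPM with the control diet (log2 fold change -0.34, SE 0.17, edgeR adjusted p = 0.226). Its high-fat-diet libraries were the lower, with a narrow gap between high-fat-diet mouse 2 and control-diet mouse 2. The value was -0.19 without high-fat-diet mouse 1, -0.22 without control-diet mouse 1 and -0.18 after the GC and length correction. Its exons share 232 bases with Cbarp on the opposite strand, which held 2093 counts beside 23516. Prkaa1, the catalytic alpha 1 subunit, had 73.9 and 50.1 CPM with the high-fat diet and 41.5 and 52.5 CPM with the control diet (log2 fold change 0.40, SE 0.23, edgeR adjusted p = 0.279). The high value of high-fat-diet mouse 1 set this difference, which was 0.11 without that mouse. The subunits Prkab1 and Prkag1 had log2 fold changes of -0.12 and -0.16 (edgeR adjusted p = 0.588 and 0.554).

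The kinase mTOR itself was lower by level but not called. Mtor (chromosome 4, 148448611 to 148557683) had 52.8 and 50.6 CPM in the high-fat-diet mice, against 69.8 and 78.4 CPM in the control-diet mice. Its libraries were well apart, and the difference between the diets was 0.52 on the log2 scale where the larger difference within a diet was 0.17. The log2 fold change of -0.52 (SE 0.14) had an edgeR adjusted p of 0.0674, while DESeq2 gave -0.53 and an adjusted p of 0.038. DESeq2 called 16.8% of all tested genes. After a correction for GC content and transcript length the log2 fold change of Mtor was -0.23 (edgeR adjusted p = 0.307).

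Rptor, the subunit that defines mTORC1, had 77 and 79.4 CPM with the high-fat diet and 92.5 and 85.2 CPM with the control diet (log2 fold change -0.18, SE 0.14, edgeR adjusted p = 0.398). Rictor, the subunit that defines mTORC2, had 52.2 and 42.3 CPM with the high-fat diet, against 59 and 66.7 CPM with the control diet (log2 fold change -0.41, SE 0.17, edgeR adjusted p = 0.154). In both genes the high-fat-diet libraries were the lower. The corrected value of Rptor turned to 0.08, and that of Rictor was -0.46 with an edgeR adjusted p of 0.0416. Without high-fat-diet mouse 2 Rictor was at -0.25. Per kb the Rictor to Rptor ratio was 0.539 and 0.424 with the high-fat diet, against 0.508 and 0.623 with the control diet, so it overlapped between the diets.

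Mlst8, shared by both complexes, had 12.3 and 11.6 CPM with the high-fat diet and 12.5 and 14.8 CPM with the control diet, without a call. The inhibitors Akt1s1 (PRAS40) and Deptor had log2 fold changes of -0.01 and 0.26, and their libraries overlapped. No gene of the 6 in the mTOR complexes was called (2 at an unadjusted p below 0.05 by edgeR, both lower, and 1 by DESeq2 at an adjusted p below 0.05).

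Tsc2, the part of the TSC complex that inactivates Rheb, had 58.1 and 61 CPM in the high-fat-diet mice, against 85.1 and 72.9 CPM in the control-diet mice. The libraries did not overlap, and the log2 fold change was -0.41 (SE 0.15, edgeR adjusted p = 0.126). After the GC and length correction it was -0.18 (edgeR adjusted p = 0.281). Its exons share 693 bases with Pkd1 on the opposite strand, a gene with 19390 counts beside 9988 for Tsc2. Tsc1 and Rheb overlapped between the diets, with log2 fold changes of -0.15 and 0.05.

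Among the targets through which mTORC1 promotes translation, 0 of 3 were called by edgeR or by DESeq2, and 0 had an unadjusted edgeR p below 0.05. Rps6kb1, which encodes S6 kinase, had 52.1 and 40.5 CPM with the high-fat diet and 34.9 and 39.1 CPM with the control diet (log2 fold change 0.33, SE 0.17, edgeR adjusted p = 0.252). High-fat-diet mouse 2 was close to control-diet mouse 2, the value was 0.15 without high-fat-diet mouse 1, and the GC and length correction turned it to -0.04. Eif4ebp1 had 90.9 and 123 CPM with the high-fat diet, against 112 and 87.4 CPM with the control diet, and Eif4ebp2 had 229 and 231 CPM with the high-fat diet, against 250 and 216 CPM with the control diet. Both encode repressors of cap-dependent translation, and both overlapped between the diets.

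Of the Rag GTPases and Ragulator 0 of 8 genes were called by edgeR or by DESeq2, and 1 had an unadjusted edgeR p below 0.05. All 8 had a positive log2 fold change, as did 9278 of the 18422 tested genes. Their median was 0.21, and in 5 of them the high-fat-diet libraries lay above the control-diet libraries (32.2% of all tested genes did so). Rraga turned negative without high-fat-diet mouse 2, and Lamtor3 did so without high-fat-diet mouse 1 and after the correction for GC content and length.

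Rragc, which encodes the Rag that pairs with RagA or RagB, had 119 and 134 CPM in the high-fat-diet mice, against 85.4 and 108 CPM in the control-diet mice (log2 fold change 0.39, SE 0.17, edgeR adjusted p = 0.184). The gap was narrow between high-fat-diet mouse 1 and control-diet mouse 2, and the value was 0.23 without control-diet mouse 1. Lamtor5, a Ragulator subunit, had 29.1 and 25.9 CPM with the high-fat diet, against 20.3 and 21.6 CPM with the control diet (log2 fold change 0.39, SE 0.15, edgeR adjusted p = 0.147). Its libraries were apart by more than the mice of either diet differed. Lamtor1, the lipidated subunit that holds Ragulator on the lysosome, had 77.2 and 77 CPM with the high-fat diet, against 65.4 and 72.1 CPM with the control diet, and Lamtor2 had 38.2 and 35.4 CPM with the high-fat diet, against 30.6 and 31.2 CPM with the control diet. Neither was called (edgeR adjusted p = 0.45 and 0.262).

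Lamtor3, Lamtor4 and Rraga overlapped between the diets, with log2 fold changes of 0.04, 0.10 and 0.05. Rragd, a Rag gene that MiT/TFE factors induce, was the least abundant member, with 40 and 85 counts in the high-fat-diet mice, against 34 and 35 counts in the control-diet mice. High-fat-diet mouse 2 stood apart, and the log2 fold change of 0.72 (SE 0.45, edgeR adjusted p = 0.315) became 0.12 without it. Pseudogenes with near-identical sequence make some counts uncertain. Gm5510 matched Lamtor1 at 98.4% identity and held 4608 counts beside 10650, and Gm5900 matched Lamtor3 at 99.5% and held 3010 beside 4923.

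**Figure D3:**
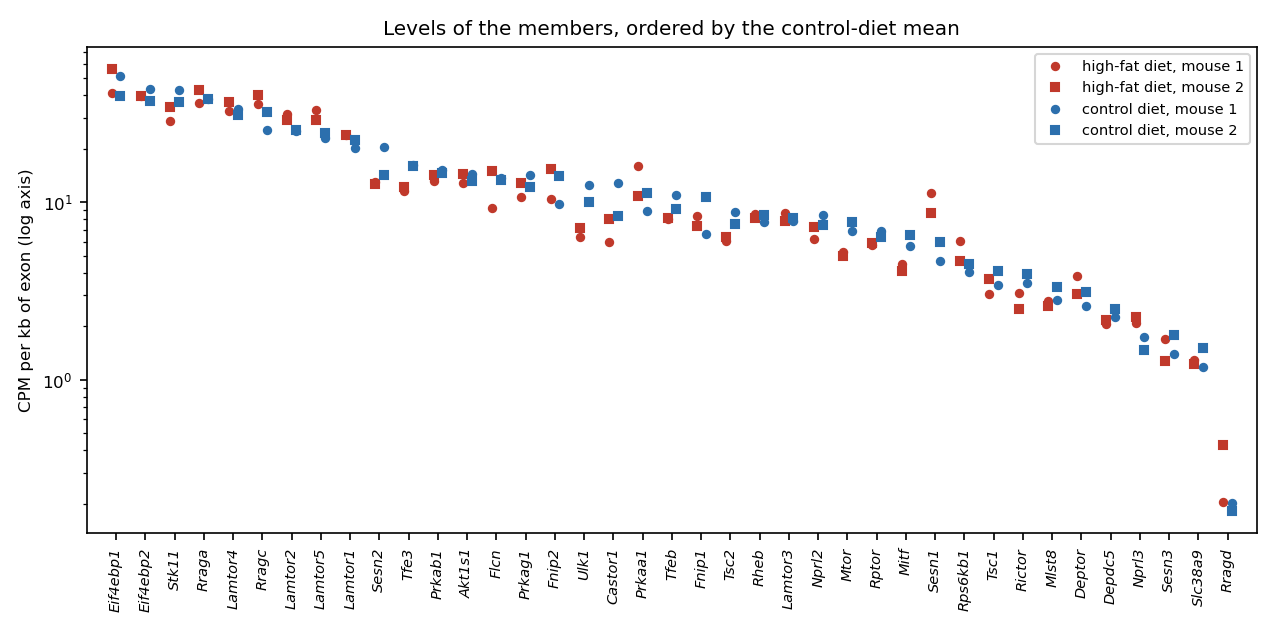
CPM per kb of exon (logarithmic vertical axis) of each member in the 4 libraries, ordered by the control-diet mean. Eif4ebp1 and Eif4ebp2 lie at the upper end and Rragd at the lower end with both diets.

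The 3 MiT/TFE factors among the members were lower by level with the high-fat diet, and none was called by edgeR or DESeq2 (2 of 3 at an unadjusted edgeR p below 0.05). In all 3 both high-fat-diet libraries lay below both control-diet libraries, as in 31.6% of all tested genes. Tfe3 had 107 and 113 CPM in the high-fat-diet mice, against 150 and 147 CPM in the control-diet mice (log2 fold change -0.43, SE 0.14, edgeR adjusted p = 0.0943). Its mice within a diet differed by at most 0.07 on the log2 scale. Mitf, known from pigment cells and osteoclasts, had 28 and 25.4 CPM with the high-fat diet, against 35.1 and 40.7 CPM with the control diet (log2 fold change -0.51, SE 0.15, edgeR adjusted p = 0.085). It reached an edgeR adjusted p of 0.0234, at -0.66, after the GC and length correction, which gave Tfe3 -0.24 (edgeR adjusted p = 0.175) and Tfeb -0.20 (edgeR adjusted p = 0.287). Tfeb had 45.6 and 46.2 CPM with the high-fat diet, against 62.4 and 51.9 CPM with the control diet (log2 fold change -0.32, SE 0.15, edgeR adjusted p = 0.211), and its value was -0.17 without control-diet mouse 1. Tfe3 was the most abundant of the 3 per kb, with 11.6 and 12.2 CPM per kb in high-fat-diet mice, against 16.2 and 15.9 CPM per kb in control-diet mice. Tfeb followed at 8.05 and 8.15 with the high-fat diet, against 11 and 9.16 CPM per kb with the control diet. A further gene of this family, Tfec, was counted in the lysosomal list described below and is named after its value was seen. It overlapped between the diets, with 11 and 7.82 CPM with the high-fat diet, against 13.9 and 4.76 CPM with the control diet (log2 fold change 0.02).

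Folliculin, encoded by Flcn, acts with Fnip1 or Fnip2 on RagC and RagD and so on the release of TFEB. The 3 genes varied more between mice of a diet than between the diets. Flcn had 39.8 and 64.5 CPM with the high-fat diet and 59.3 and 58.1 CPM with the control diet, Fnip1 had 59.7 and 52.4 CPM with the high-fat diet, against 47.2 and 75.8 CPM with the control diet, and Fnip2 had 87.4 and 129 CPM with the high-fat diet, against 82 and 118 CPM with the control diet. Their libraries overlapped, with edgeR adjusted p between 0.659 and 0.788.

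Over the whole set, 8 members (20.5%) had both high-fat-diet libraries above the control-diet libraries and 15 (38.5%) had both below, against 32.2% and 31.6% of all tested genes. The difference between the diets was larger than the difference within either diet in 18 members (46.2%), against 49.1% of all tested genes. Per kb of exon, the members spanned from 48.8 CPM for Eif4ebp1 to 0.317 CPM for Rragd in the high-fat-diet mean, and from 45.5 to 0.192 CPM for the same 2 genes in the control-diet mean. After Eif4ebp1 in the control-diet order came Eif4ebp2 at 40.3, Stk11 at 39.7 and Rraga at 38.1 CPM per kb, and in this order the control-diet libraries of each neighbouring pair overlapped. Mtor stood at 5.11 with the high-fat diet and 7.33 with the control diet, and Rptor at 5.81 with the high-fat diet and 6.6 CPM per kb with the control diet.

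Other genes of the same processes were described by lists. Beside the 10.5% of all tested genes that were called stood 13.2% of the list of other mTORC1 genes, 16% of the AMPK list and 9.62% of the lysosomal list. The autophagy list had 3.45% and the ATF4 list 11.5%. Among the 10312 genes whose average log2 CPM reached 3 or more, 7.86% were called. Of 38 other genes of the mTORC1 pathway, 2 rose and 3 fell (median log2 fold change -0.12). Grb10, an mTORC1 substrate that restrains insulin signalling, had 44.3 and 38.7 CPM with the high-fat diet and 22.5 and 17.4 CPM with the control diet (edgeR adjusted p = 0.0264). Seh1l, a subunit of GATOR2, rose too, with 86.5 and 70.9 CPM with the high-fat diet, against 47.3 and 50.2 CPM with the control diet (edgeR adjusted p = 0.0454). Slc15a3, a peptide and histidine transporter of lysosomes, fell to 224 and 292 CPM with the high-fat diet, against 609 and 451 CPM with the control diet (edgeR adjusted p = 0.0394). The glutamine transporter Slc1a5 fell to 81.3 and 86.4 CPM with the high-fat diet, against 163 and 124 CPM with the control diet (edgeR adjusted p = 0.0457).

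Of 25 tested genes of the AMPK pathway, 1 rose and 3 fell (median -0.11). Sik1, an AMPK-related kinase activated by LKB1, fell to 177 and 213 CPM with the high-fat diet, against 568 and 484 CPM with the control diet (log2 fold change -1.43, SE 0.18, edgeR adjusted p = 0.0139). Tbc1d1, a regulator of glucose transporter traffic that AMPK phosphorylates, had 53.1 and 54.5 CPM with the high-fat diet, against 93.4 and 86.7 CPM with the control diet (edgeR adjusted p = 0.0301). Prkag2, a gamma subunit of AMPK, fell to 11.4 and 12.6 CPM with the high-fat diet, against 21.6 and 20.9 CPM with the control diet (edgeR adjusted p = 0.0349). Prkaa2, the other catalytic subunit, rose to 2.48 and 2.08 CPM with the high-fat diet, against 0.894 and 0.78 CPM with the control diet (edgeR adjusted p = 0.0462). Per kb it stayed far below Prkaa1, whose level was 50.9 and 41.1 times that of Prkaa2 in the high-fat-diet and 79.4 and 115 times in the control-diet libraries.

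Of 52 lysosomal targets of TFEB and TFE3, 2 rose and 3 fell (median 0.11). Gpnmb, a glycoprotein that MiT/TFE factors induce, rose to 36.6 and 38.2 CPM with the high-fat diet, against 19.7 and 15.8 CPM with the control diet (edgeR adjusted p = 0.0215). Gla, the lysosomal alpha-galactosidase, fell to 48.4 and 70.9 CPM with the high-fat diet, against 124 and 130 CPM with the control diet (edgeR adjusted p = 0.0319). Uvrag, which acts in autophagosome maturation, fell to 85.9 and 96.7 CPM with the high-fat diet, against 199 and 165 CPM with the control diet (edgeR adjusted p = 0.025), and the proton pump subunit Atp6v0c fell to 75.6 and 99.3 CPM with the high-fat diet, against 201 and 162 CPM with the control diet (edgeR adjusted p = 0.0317). Another pump subunit, Atp6v1g1, rose 1.64-fold (edgeR adjusted p = 0.0418) and is named after its value was seen.

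Of 29 genes of autophagy initiation and conjugation, 0 rose and 1 fell (median -0.13). It was Atg2a, a lipid transfer protein of the growing autophagosome, with 64.4 and 78.6 CPM with the high-fat diet, against 153 and 116 CPM with the control diet (edgeR adjusted p = 0.0398). In 13 of the 29 genes the high-fat-diet libraries lay below the control-diet libraries, and in 5 above. Of all tested genes 31.6% lay below and 32.2% above. The 13 and 5 genes together are 62.1% of the list, against 63.8% of all tested genes. At an unadjusted edgeR p below 0.05 stood 8 genes of the list, all lower, where 17.7% of all tested genes were lower and 13.6% higher. Of 26 genes in the list of the amino acid response through ATF4, 1 rose and 2 fell (median 0.13). This list also holds the kinases Eif2ak1 to Eif2ak4, which act upstream of ATF4. Vldlr, a lipoprotein receptor, rose to 31.5 and 23.5 CPM with the high-fat diet, against 13.6 and 11.1 CPM with the control diet (edgeR adjusted p = 0.03). Ppp1r15a, a phosphatase subunit that ends the stress block on translation, fell to 124 and 162 CPM with the high-fat diet, against 384 and 274 CPM with the control diet (edgeR adjusted p = 0.0318). Eif2ak3, which encodes the stress kinase PERK, fell to 23.5 and 25.4 CPM with the high-fat diet, against 41 and 37.7 CPM with the control diet (edgeR adjusted p = 0.0384).

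Which of the 18 calls in the 5 lists held varied with the library left out, as did the number of calls over all tested genes, given below. The log2 fold changes of the 16 genes taken by the naming rule kept their sign whichever library was left out. Without high-fat-diet mouse 1, 0 of the 18 were called, with edgeR adjusted p of the 16 genes that the naming rule took between 0.0568 for Sik1 and 0.297 for Prkaa2. Without high-fat-diet mouse 2 only Gla, Sik1 and Vldlr were called (edgeR adjusted p = 0.0338, 0.0348 and 0.0454). Without control-diet mouse 1 13 of the 18 were called, with Seh1l, Slc1a5, Atg2a and Eif2ak3 among those lost, and without control-diet mouse 2 all 18. With the mouse number as a block 11 were called, and Seh1l, Slc1a5, Prkag2, Prkaa2 and Eif2ak3 had edgeR adjusted p of 0.0674, 0.0505, 0.0511, 0.0561 and 0.0663. After the GC and length correction Seh1l was at 0.40 and not called (edgeR adjusted p = 0.0657), and Prkaa2 was not called either (0.058). A minimum of 50 counts ended the calls of Seh1l (edgeR adjusted p = 0.0603) and Slc1a5 (0.0502), and a block that pairs mouse 1 of each diet with mouse 2 of the other ended that of Prkaa2 (0.0536).

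**Figure D4:**
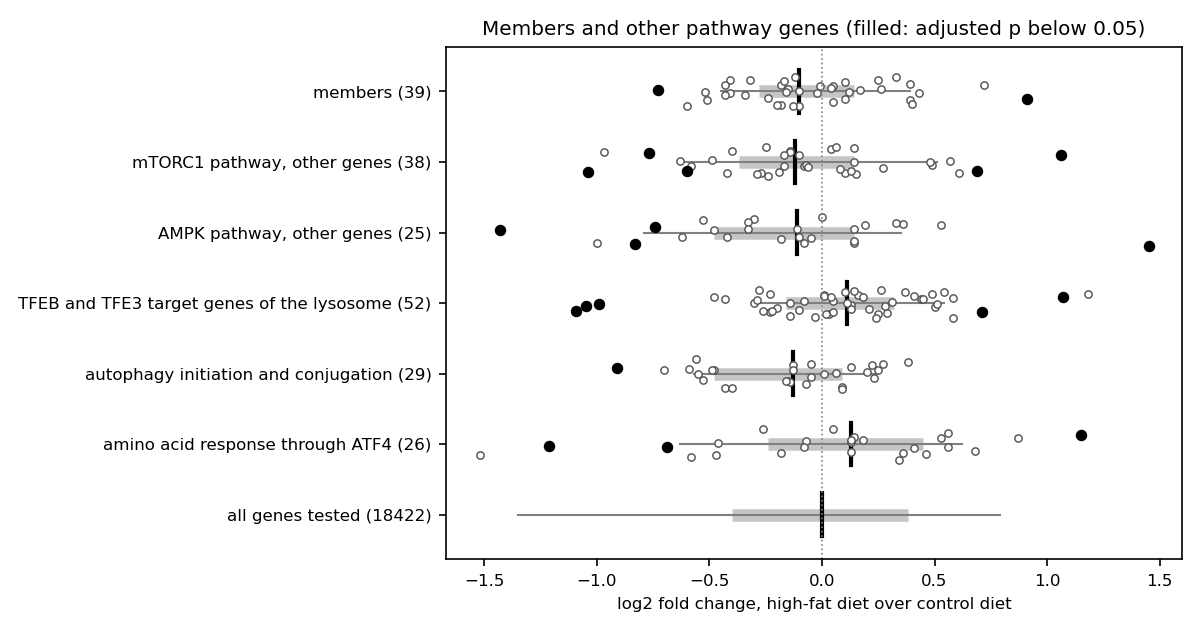
Log2 fold change (horizontal axis) of the members and of 5 lists of other pathway genes, 1 point per gene, with filled points for called genes. Black ticks are medians, grey bars run from the lower to the upper quartile and thin lines from the 10th to the 90th percentile. Medians lie between -0.13 and 0.13, and all tested genes have 0.00.

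**Figure D5:**
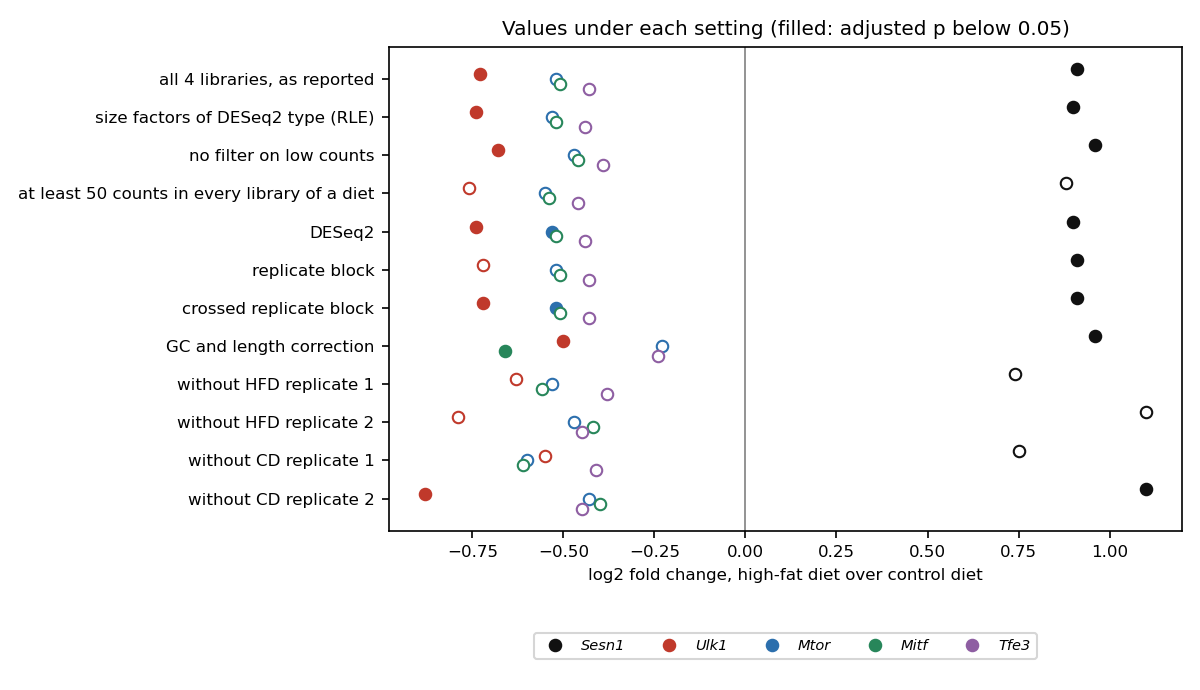
Log2 fold change (horizontal axis) of the 5 members with the smallest p under each setting, filled where the adjusted p was below 0.05. Sesn1 lies between 0.74 and 1.10 and Ulk1 between -0.88 and -0.50, with the call of each lost in some settings.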

How the data were processed

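RNA of sorted macrophages from 4 tumours was sequenced, 1 library per mouse. The authors deposited a table of unnormalized read counts per gene. Per the submitters' processing notes the builds are GRCm38 and mm10, and the tools, listed without their roles, include BWA 0.7.12, cutadapt 1.15, DESeq2 1.24.0 and FastQC 0.11.5. The kit kept strand, per the labels' protocols. No source used here gives the counting tool, its strand setting or the annotation. Replicates are separate mice. The p-values rest on the spread between 2 mice per diet, with each gene's spread drawn towards that shared across genes.

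The 105 identifiers without a symbol (0.012 to 0.0129% of counts) stayed in the totals. Genes passing edgeR's filterByExpr (minimum count 10, minimum total 15) were scaled by TMM and tested with edgeR 4.0.16's robust quasi-likelihood test, diet as the only term, with Benjamini-Hochberg adjustment over 18422 genes. Calls were made at an adjusted p below 0.05 (R 4.3.3, limma 3.58.1). Standard errors (SE) were the size of the log2 fold change over the root of its F statistic. Alternatives were DESeq2 1.42.0, DESeq2-type size factors, no filter, a minimum of 50 counts, each library left out, and the mouse number as a block. A crossed block and a correction for the GC content and length of each gene's longest transcript were added after seeing the data. Exonic lengths, used for CPM per kb, came from a GRCm38 annotation, and 94.8% of identifiers had the same version in it. The fit was tested on simulated data with 2 libraries per diet. Every simulated gene had the same spread in both diets, and only well-expressed genes were given a change. In the real data spread differs between genes, so the shares below hold for the simulated setting only. It recovered 4% of simulated log2 changes of 0.5, 50% of those of 1, and 100% of those of 2 and 3. There were 5 false calls among 18422 genes. A gene without a call may therefore still differ between the diets.

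The members and lists were chosen with earlier results of these data known. Members were named with their values in every library if called, if among the 10 smallest p, or if at the centre of the pathway. Of each list up to 4 called genes with the smallest p were named. One list gene is counted but not reported by name here.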

Additional observations from a re-analysis of the deposited data

How the results depend on the processing

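The number of genes called was 1937, against 3783 with no filter on low counts, 1156 with at least 50 counts in every library of a diet, 3086 with DESeq2, and 371 to 4468 with 1 library left out. Of the members 2 were called, against 0 with the minimum of 50 counts, 4 after the correction for GC content and length, and 0 to 4 with 1 library left out. Of the other pathway genes 18 were called, against 33 with no filter, 32 with DESeq2, and 0 to 42 with 1 library left out. With a library left out, the lone library of that diet is assumed to vary like the other diet's. The cause of these shifts was not tested. After the correction for GC content and length 2447 genes were called in all, the 4 members among them. Rps6kb1 then turned to -0.04 and Rptor to 0.08. Of the 39 members, 28 kept their sign whichever library was left out. With the mouse number as a replicate block 1 member was called, Sesn1, and 2048 genes in all. The deviations of same-numbered mice from their diet means had a correlation of -0.188 over 10312 genes. With 2 mice per diet this cannot settle whether the numbers mark anything shared, and the labels do not say. With the pairing crossed, 2455 genes, 3 members and 27 other pathway genes were called. With 2 mice per diet, an exact permutation test of a single gene cannot go below p = 0.333, so the calls rest on the spread shared across genes.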
